A study of Mus musculus with 3 samples.

Results

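The levels of 10 genes known from fat cells were followed in stroma sorted from mouse tumours. The genes were Adipoq, Fabp4, Pparg, Plin1, Lep, Cidec, Lpl, Cd36, Ucp1 and Retn, chosen by name as adipocyte genes out of 22087 genes measured under a single symbol. All 10 were measured, each by 1 probe set (a group of array probes read as 1 value) that carried no other gene's symbol.

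The 3 samples analysed here were all labelled as Dicer1 +/- stroma and form 1 group. No genotypes could therefore be compared, and no test between groups was made. Dicer1 encodes the endonuclease that cuts microRNA precursors. The sample titles do not say whether the sorted cells themselves, the tumour cells or both carried this genotype. Tumours were digested with collagenase and dispase for 1 h, and the cells were spun down, passed through filters of 70 and 40 µm and sorted. Live cells without PECAM1, an endothelial surface protein, and without the red fluorescent protein tdTomato, which marked tumour cells, were taken as stroma, and their total RNA was measured on 1 Affymetrix array per sample. The promoter behind tdTomato, the strain, the age of the mice, and whether the samples came from separate animals are not stated in the sources used here. Every SD below therefore measures only the spread between these samples, which may in part be technical.

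White fat cells store triglyceride in a single large lipid droplet, which they coat with perilipin and CIDE proteins, and they secrete hormones such as adiponectin and leptin. Their differentiation from fibroblast-like progenitors is driven by the nuclear receptor PPARγ together with C/EBP factors. Several genes that PPARγ switches on in fat, among them Fabp4, Cd36 and Lpl, are also expressed by macrophages, and Fabp4 and Cd36 by capillary endothelium as well. Brown and beige fat cells burn lipid to make heat through the mitochondrial uncoupling protein UCP1.

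Levels are log2 intensities as deposited, so a difference of 1 is 2-fold. Since probes differ in brightness, no gene is ranked above another by its level, and sums over a marker list, given below for each sample, weigh bright probe sets most. The background was read from 1438 probe sets of olfactory, vomeronasal and taste receptor genes, which tumour stroma should not express, and a gene was called detected on an array where it exceeded their 95th percentile. This level was 5.16, 5.11 and 5.20 on the arrays of samples 1, 2 and 3. The array medians ran from 5.34 to 5.36. Dicer1 itself ran from 8.08 to 8.10, with exactly equal values in samples 1 and 2, so this span may understate the spread. Sample 1 stood apart in the X-inactivation RNA Xist, at 9.78 against 3.43 and 3.49 in samples 2 and 3. In the Y-linked gene Eif2s3y it was at 3.86 against 8.51 and 8.71. By these 2 genes sample 1 read as female and samples 2 and 3 as male, which the labels do not state. Sample 1 was then not from the animal of sample 2 or 3, and spreads that include it may include sex. Leaving out sample 1 could not change the count of detected adipocyte genes, since each was detected on all 3 arrays or on none.

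Of the 10 adipocyte genes, 7 were detected on all 3 arrays and 3 on none. Among all 20658 named genes outside the receptors, 60.5% were detected on all 3 arrays and 34% on none. Of protein-coding genes alone 66.8% were detected on all 3, so the share of adipocyte genes detected at this level was near that of genes at large. With each array's median over all probe sets as the level, 4 of the 10 passed, beside 57.4% of all named genes. The 10 genes fell into 3 kinds. Fabp4, Lpl and Cd36 lay more than 3 log2 units above the background level on every array, and Pparg lay about 1 unit above it. Adipoq, Plin1 and Retn passed it by less than 0.5. Lep, Cidec and Ucp1 lay below it.

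**Figure D1:**
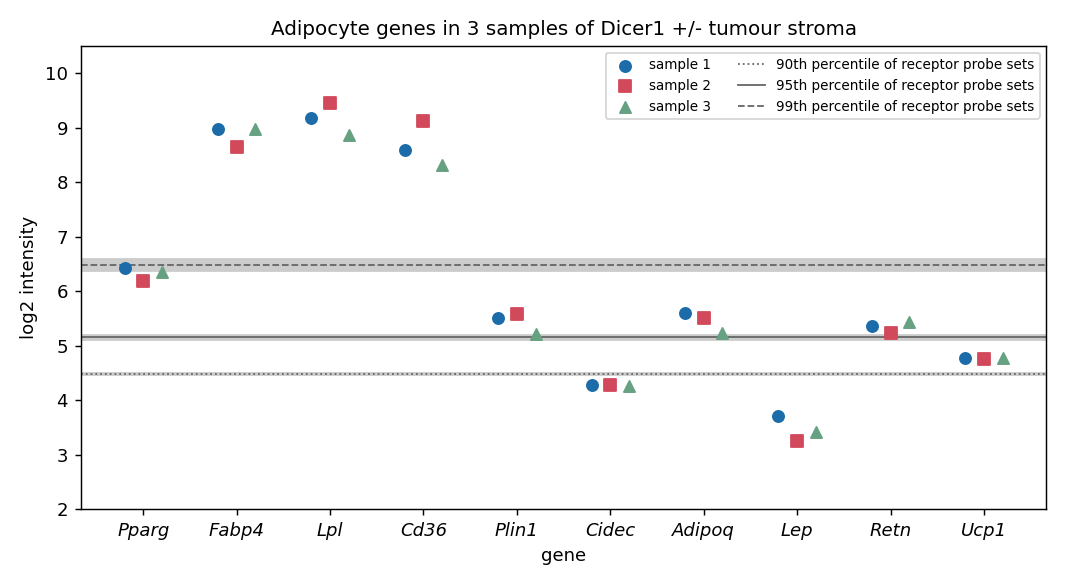
Log2 intensity (vertical axis) of each adipocyte gene in samples 1 to 3 of Dicer1 +/- tumour stroma, 1 point per array. Horizontal lines are the 90th, 95th and 99th percentiles of 1438 receptor probe sets, with a grey band for their range over the arrays; Fabp4, Lpl and Cd36 lie above all of them, while Adipoq, Plin1 and Retn lie just above the 95th and Lep and Cidec below the 90th.

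The genes whose products release, take up and carry fatty acids were the members well above background. Lpl encodes lipoprotein lipase, the secreted enzyme that frees fatty acids from circulating triglyceride. It was at 9.18 in sample 1, 9.46 in sample 2 and 8.86 in sample 3 (mean 9.16 ± 0.30, SD, n = 3). Sample 2 was the highest and sample 3 the lowest, a difference of 0.60 or 1.52-fold.

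Cd36 encodes a scavenger receptor that takes up fatty acids and oxidised lipoproteins. Its level was 8.59 in sample 1, 9.13 in sample 2 and 8.31 in sample 3 (mean 8.68 ± 0.42, SD, n = 3). The order of the samples was that of Lpl. The span of 0.82, or 1.76-fold, was the largest among the 10 genes, and between samples 1 and 3 alone it was 0.27.

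Fabp4 encodes the fatty acid binding protein of fat cells, also called aP2. Its promoter is widely used to drive Cre recombinase; whether it drove the tdTomato label that the gate selected against is not stated in the sources used here, and this limits how the Fabp4 values can be read. Fabp4 was at 8.98 in sample 1, 8.64 in sample 2 and 8.98 in sample 3 (mean 8.87 ± 0.20, SD, n = 3). Here sample 2 was the lowest, 0.34 below the others, while samples 1 and 3 differed by 0.0018. The sample with the most Lpl and Cd36 signal was thus the one with the least Fabp4 signal. The same low value in sample 2 was seen for Fabp5, the related binding protein of macrophages and skin, at 9.91, 9.02 and 9.83 in samples 1 to 3.

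On every array 1 of the 1438 receptor probe sets lay at or above Fabp4, and the same held for Lpl and for Cd36. The lipid uptake list as a whole had 13 of 14 measured genes detected on all arrays, beside 60.5% of all named genes. The 14th was Gpihbp1, singled out here after its values were seen, whose product holds lipoprotein lipase on the capillary wall. It was at 4.99 in sample 1, below background, and at 5.25 and 5.37 in samples 2 and 3, just above it.

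Pparg encodes PPARγ, the nuclear receptor that fat cells need to form and that macrophages also use in lipid handling. Its level was 6.42, 6.19 and 6.35 in samples 1 to 3, with a mean of 6.32 ± 0.12 (SD, n = 3). All 3 values lay between 1.08 and 1.26 above the background level. At the stricter 99th percentile of the receptors, which stood at 6.37, 6.58 and 6.49, Pparg passed on the array of sample 1 alone. On the 3 arrays, 14, 23 and 21 of the 1438 receptor probe sets were at or above it.

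Of the list of transcription factors of fat cell differentiation, Pparg included, 11 of 12 were detected on all arrays, beside 60.5% of all named genes. Cebpa, which acts with Pparg late in differentiation, was at 8.67, 8.39 and 8.06 in samples 1 to 3. The early factors Cebpb and Cebpd had means of 8.52 ± 0.24 and 8.58 ± 0.021 (SD, n = 3 each). Cebpd had exactly equal values in samples 1 and 3, so its SD may understate the spread. These C/EBP factors are also expressed in myeloid cells. Ebf2, a factor of fat progenitors and brown fat, spanned more than 2-fold, at 7.01, 8.41 and 6.52. Klf15, a late factor, was at 4.18, 5.21 and 4.98, above background in sample 2 only.

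Genes restricted more closely to mature fat cells lay at the edge of background. Adipoq encodes adiponectin, a hormone that fat cells secrete in large amounts. It was at 5.59 in sample 1, 5.50 in sample 2 and 5.23 in sample 3 (mean 5.44 ± 0.19, SD, n = 3). These values exceeded the background level by 0.43, 0.39 and 0.028. Of the 1438 receptor probe sets, 46, 52 and 71 were at or above Adipoq on the 3 arrays.

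Plin1 encodes perilipin 1, the coat protein that guards the fat cell's droplet from lipases. Its level was 5.51, 5.57 and 5.22 in samples 1 to 3, with a mean of 5.44 ± 0.19 (SD, n = 3). Sample 3 was again the lowest, 0.025 above the background level, and 72 receptor probe sets were at or above Plin1 there. Without sample 3 the span of Plin1 was 0.060 instead of 0.35, and that of Adipoq 0.093 instead of 0.37.

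Retn encodes resistin, a hormone made in mice mainly by fat cells. It was at 5.37, 5.23 and 5.44 in samples 1 to 3, with a mean of 5.35 ± 0.11 (SD, n = 3), between 0.11 and 0.24 above the background level. Sample 2 was the lowest here. None of Adipoq, Plin1 and Retn passed the 99th percentile of the receptors on any array, a level that 38.1% of all named genes passed on all 3 and that Fabp4, Lpl and Cd36 alone among the 10 passed on all 3. By construction about 5% of receptor probe sets pass the 95th percentile on an array, and 4.20% of receptor genes passed it on all 3, so these 3 genes were not told apart from the upper tail of the background.

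Lep, Cidec and Ucp1 were below the background level on every array. Lep encodes leptin, the hormone that reports fat stores to the brain. It was at 3.71, 3.24 and 3.43 in samples 1 to 3, between 1.45 and 1.87 below that level, and its values below background carry no order. Cidec encodes a droplet protein that lets small droplets merge into large ones, and it was at 4.29 in samples 1 and 2 and 4.26 in sample 3. Ucp1 was at 4.78 in samples 1 and 3 and 4.76 in sample 2. Cidec had exactly equal values in samples 1 and 2, and Ucp1 in samples 1 and 3. Their SDs of 0.018 and 0.011 may understate the spread, and 15.9% of all named genes had at least 1 such pair. A probe set below background does not show that the transcript was absent from the cells.

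Wider lists around these genes were also read. They were chosen with earlier results of these data known, so a detected share above that of all genes may be partly built in. Across 8 lists of fat cell genes, 95 of 100 symbols were measured under a single symbol, the 10 adipocyte genes included. Of these, 77 (81.1%) were detected on all 3 arrays, against 60.5% of all named genes and 66.8% of protein-coding genes. Without the 10 genes the count was 70 of 85 (82.4%). Many of these genes serve lipid metabolism in most cells, and at the 99th percentile 49 of the 95 (51.6%) passed on all arrays, beside 38.1% of all named genes.

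**Figure D2:**
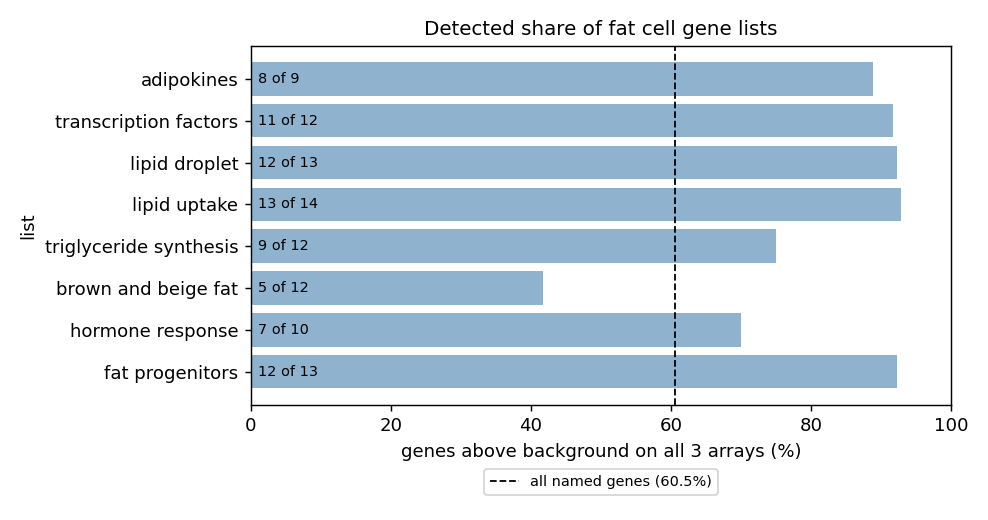
Share of measured genes in each of 8 fat cell lists that lay above background on all 3 arrays (horizontal axis, percent), with the counts written in the bars and the 60.5% of all named genes as a dashed line. The brown and beige fat list, with 5 of 12, is the one below the line.

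Among adipokines and their receptors 8 of 9 measured genes were detected, all but Lep, beside 60.5% of all named genes. The 8 include Adipoq and Retn, which lay at the edge of background. At the 99th percentile 5 of the 9 passed on all arrays, beside 38.1% of all named genes. Rbp4, a retinol carrier that liver and fat secrete, was at 7.07, 7.24 and 7.42 in samples 1 to 3. Of the lipid droplet and lipolysis genes 12 of 13 were detected, all but Cidec, beside 60.5% of all named genes. Plin2, the droplet coat protein of most cell types including lipid-laden macrophages, was at 8.69, 8.95 and 9.67, highest in sample 3. Plin3, another widely expressed coat protein, had a mean of 7.81 ± 0.088 (SD, n = 3). The lipid droplet genes as a group were highest in sample 3 in 8 of 13 cases, beside 32.5% of all named genes.

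Triglyceride synthesis genes were detected in 9 of 12 cases, beside 60.5% of all named genes. Dgat1 and Dgat2 encode the enzymes that add the last fatty acid to triglyceride. Dgat1 was at 8.84, 9.47 and 10.07 in samples 1 to 3. Dgat2 was at 6.46, 6.68 and 7.70. Both were highest in sample 3, while Scd1, the stearoyl-CoA desaturase, was lowest there, at 8.27 against 9.18 and 9.37. Gpam, Agpat2 and Lpin1, which act earlier in the pathway, had means of 7.02 ± 0.13, 7.40 ± 0.31 and 6.32 ± 0.25 (SD, n = 3 each). The 3 genes detected on no array were Gpd1, which supplies glycerol phosphate, Thrsp, a lipogenic protein of fat and liver, and Mlxipl, which encodes the carbohydrate-response factor ChREBP. Their means were 4.87, 4.72 and 4.54.

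The brown and beige fat list was the least detected, at 5 of 12 genes, beside 60.5% of all named genes. Besides Ucp1, its genes on no array were Ppargc1a, the coactivator that raises mitochondrial number, at a mean of 4.28 ± 0.29, Cidea at 4.42 ± 0.35, Elovl3 at 4.08 ± 0.083 and Zic1 at 4.81 ± 0.31 (SD, n = 3 each). Prdm16, a regulator of brown fat that other cells also use, was detected at 5.97 ± 0.21 (SD, n = 3). Dio2, the enzyme that activates thyroid hormone, was at 6.85, 8.55 and 7.12 in samples 1 to 3, highest in sample 2. Cox8b was at 4.34, 4.84 and 5.58, above background in sample 3 only.

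Of the hormone response list 7 of 10 measured genes were detected, beside 60.5% of all named genes. Slc2a4, the insulin-regulated glucose transporter of fat and muscle, was at 5.54, 6.11 and 5.99. The insulin receptor gene Insr and its substrate Irs1 had means of 7.91 ± 0.19 and 7.49 ± 0.22 (SD, n = 3 each). Acvr1c and Hcar1, both receptors with high expression in fat, were detected on no array. Npr3, the natriuretic peptide clearance receptor, had the widest span of all 95 genes, at 6.48, 8.19 and 5.79 in samples 1 to 3.

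Of the progenitor genes 12 of 13 measured were detected on all arrays, beside 60.5% of all named genes. Pdgfra, the growth factor receptor that marks fat progenitors and fibroblasts alike, was at 8.55, 9.24 and 7.82 in samples 1 to 3. Cd34 was at 9.68, 10.54 and 8.58, and Pi16, a marker of progenitors around vessels, was at 9.40, 10.68 and 8.94. All 3 had the sample order of Lpl and Cd36, from sample 2 down to sample 3. Of the 13 measured progenitor genes, 7 were highest in sample 2, beside 30.2% of all named genes. Only 5 of the 13 were lowest in sample 3, beside 30.3%. Pdgfrb had a mean of 9.08 ± 0.52 (SD, n = 3). Dlk1, which encodes the preadipocyte protein Pref-1, was at 5.99 in sample 1 and 6.49 in samples 2 and 3. Wnt10b, a signal that blocks fat cell formation, was detected on no array.

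None of the 10 adipocyte genes had a range over the samples above 1 (2-fold), counted over the 7 that were detected. Among all 13636 genes detected on at least 1 array, 5.7% had such a range, and without the filter on dim genes it was 3.99% of all named genes against 0 of 10. At the lower size of 1.5-fold 2 of these 7 passed, Lpl and Cd36, beside 19.9% of detected genes. Over all 10 members the median range was 0.34, beside 0.27 for all named genes, and the ranges ran from 0.020 to 0.82. In 3 of the 7 detected members, namely Lpl, Cd36 and Plin1, the last of them at the edge of background, sample 2 was the top and sample 3 the bottom, and 18% of genes detected on at least 1 array had that order. None of the 7 was lowest in sample 1, where 31.2% of the genes detected on at least 1 array were lowest. Since no member had a range above 1, no other genes were matched to a member's pattern.

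In the 8 fat lists, 11 of the 82 genes detected on at least 1 array had a range above 1 (13.4%), beside 5.7% of all such genes. They were Klf15, Ebf2, Dgat1, Dgat2, Scd1, Dio2, Cox8b, Npr3, Pdgfra, Cd34 and Pi16. Most were highest in sample 2, while Dgat1, Dgat2 and Cox8b were highest in sample 3. Among all genes detected on at least 1 array, 32.5% were highest in sample 2 and 32.8% in sample 3. Klf15 and Cox8b were above background only on the array where each was highest, and entered the count through it. Their lowest values lay below background, so their ranges and top samples carry little weight. The lists were also chosen with earlier results of these data known.

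**Figure D3:**
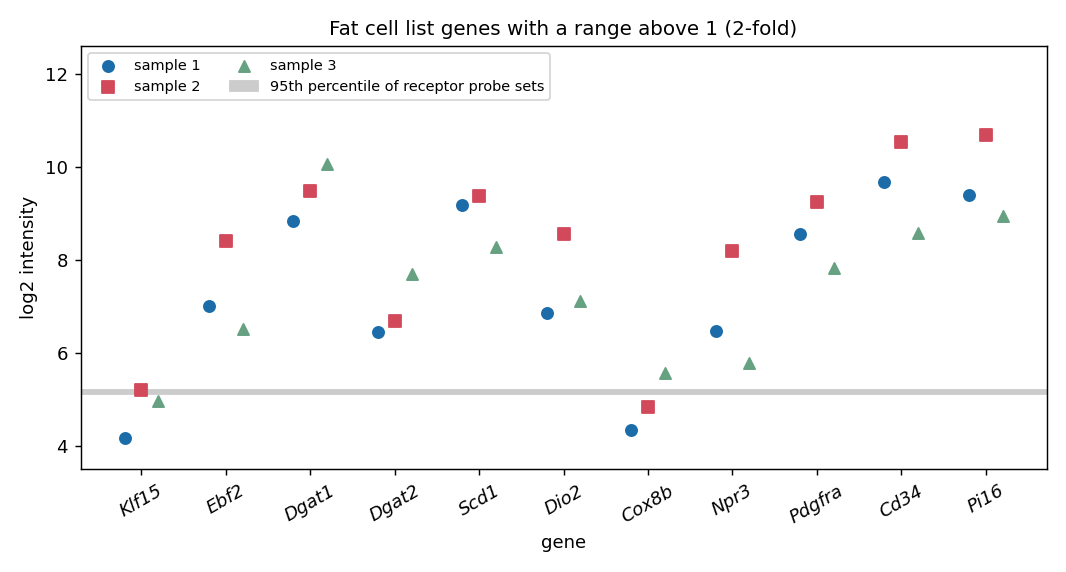
Log2 intensity (vertical axis) of the 11 fat list genes with a range above 1, 1 point per sample, with the 95th percentile of receptor probe sets as a grey band. Pdgfra, Cd34, Pi16, Npr3 and Ebf2 peak in sample 2 with sample 3 at the bottom, and Dgat1 and Dgat2 are highest in sample 3.

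Markers of other cell types also differed between the samples. In bulk samples fewer cells of a type and less RNA per cell cannot be told apart. Macrophage markers were detected in 12 of 12 cases, beside 60.5% of all named genes. Adgre1 was at 9.46, 9.19 and 8.47 in samples 1 to 3 and Csf1r at 10.35, 10.54 and 9.99. Cd68 and Lyz2 stayed within 0.12. Of these 12 genes 8 were highest in sample 2, beside 30.2% of all named genes, and 9 lowest in sample 3, beside 30.3%. Their summed intensity, on the log2 scale, was 13.87, 13.93 and 13.57. Lpl and Cd36 had the same order of samples, and the part of macrophages in these values was not tested.

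Pericyte and smooth muscle markers were detected in 10 of 10 cases, beside 60.5% of all named genes. Sample 2 was the top for 9, beside 30.2% of all named genes, and sample 3 the bottom for 8, beside 30.3%. Rgs5 was at 9.93, 10.64 and 9.47, Acta2 at 10.54, 11.18 and 10.03, Myh11 at 8.81, 10.02 and 7.90, and Cnn1 at 8.15, 8.92 and 7.16. The summed intensity of the list was 12.21, 12.93 and 11.75 on the log2 scale. The fat progenitor list, which fibroblasts share, summed to 12.54, 13.02 and 12.39. Their part in the Lpl and Cd36 values was not tested.

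Endothelial markers, which the gate was meant to leave out, ran differently. Of 12, 7 were detected on all arrays, beside 60.5% of all named genes. Sample 3 was the top for 11, beside 32.5% of all named genes, and sample 2 the bottom for 8, beside 29.2%. Cdh5 was at 6.17, 6.75 and 7.81, Kdr at 5.47, 5.21 and 6.09, Tek at 5.31, 5.93 and 5.75, and Pecam1 at 8.02, 7.20 and 8.25. The list summed to 9.65, 9.59 and 10.35 on the log2 scale. Fabp4 and Pecam1 were both lowest in sample 2, but Fabp4 was level in samples 1 and 3, where this sum differed by 0.70. The part of endothelial cells in the Fabp4 signal was not tested.

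Muscle fibre genes were highest in sample 3 in 8 of 10 cases, beside 32.5% of all named genes. Acta1 was at 8.27, 8.01 and 9.39, Mb at 5.69, 5.38 and 6.60, and Myh1 at 4.60, 3.94 and 5.44. The list summed to 9.77, 9.67 and 10.70. Ckm, at 5.18, 5.45 and 5.37, was highest in sample 2. Lpl, which muscle also makes, was lowest in sample 3. Platelet genes, taken up because platelets carry CD36, were detected in 4 of 6 measured cases, beside 60.5% of all named genes. In sample 3, 2 of the 6 were lowest, beside 30.3% of all named genes. Pf4, which macrophages can also express, was at 9.31, 9.38 and 8.06, and Itga2b at 5.50, 5.43 and 5.21. Gp9 ran the other way, at 4.86, 5.19 and 6.26, and Gp6 was below background at 4.72, 4.20 and 4.43. The list summed to 9.71, 9.74 and 8.94, but without Pf4 to 7.67, 7.53 and 7.81, so its low value in sample 3 rested on Pf4.

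Neutrophil markers were highest in sample 3 in 9 of 10 cases, beside 32.5% of all named genes. Elane was at 9.33, 9.93 and 10.81 and Mpo at 9.75, 10.56 and 10.99. S100a8 was nearly level, at 12.47, 12.43 and 12.43, as was S100a9, at 12.29, 12.25 and 12.34. The list summed to 14.43, 14.59 and 14.87. The part of muscle, platelets and neutrophils in the members' values was not tested.

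**Figure D4:**
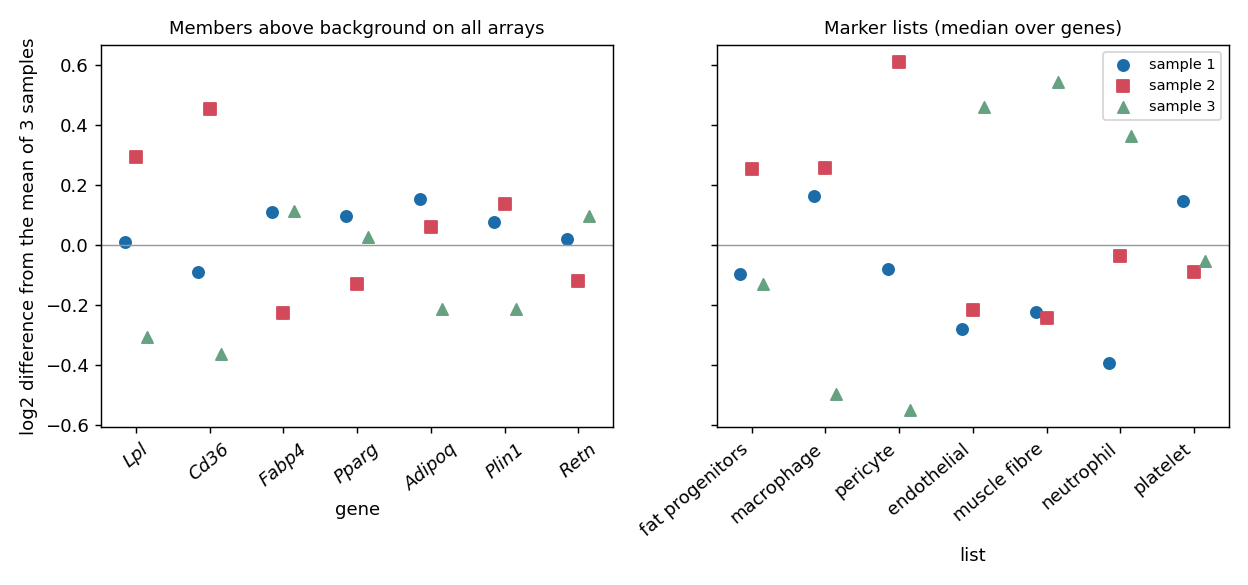
Difference of each sample from the mean of the 3 samples (vertical axis, log2) for the 7 adipocyte genes above background on all arrays (left) and for the median gene of each marker list (right), 1 point per sample. Lpl and Cd36 have their top value in sample 2 and their bottom value in sample 3, as the macrophage, fat progenitor and pericyte medians are, while Fabp4, Pparg and Retn are lowest in sample 2.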

How the data were processed

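RNA of 3 samples of 1 group was measured on 1 array each. The authors deposited log2 intensities per probe set. The submitters' processing notes name Partek, without a version or a role. How background was corrected, arrays normalized and probes summarized is not given in the sources used here. That the scale is log2 was judged from the values. Of 31873 probe sets, 23094 had exactly 1 gene symbol in GEO's platform annotation, 1764 had several and 7015 had none here, and only the first were used, with the probe set of highest mean per gene. No coordinates are printed, since no build was named for the values. The detection level and a range above 1 were applied as described, with pandas 2.3.3 in Python 3.11.15, and tested on simulated data. The members and gene lists were chosen with earlier results of these data known. The lists held 162 symbols. Named were the 10 members, the first 4 measured genes of each list, and fat list genes detected on no array or with a range above 1; any other gene was chosen after its values were seen. No test was run, since there is 1 group. Precision is limited by the number of arrays. Alternatives changed the detection level, normalization, probe set summary, range threshold and samples. Promoter sequences were not used here.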

Additional observations from a re-analysis of the deposited data

How the results depend on the processing

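The count of adipocyte genes detected depended on the background level. It was 7 of 10 as reported, 3 with the 99th percentile of the receptors, where Fabp4, Lpl and Cd36 remained and 38.1% of all named genes passed, and 4 where each array's median over its probe sets served as the level, and there Pparg remained as well, beside 57.4% of all named genes. With the 90th percentile it was 8, Ucp1 added, beside 72.0%. Quantile normalization gave 7. It keeps the order of values within an array, so it could hardly change which genes pass a percentile of that array. Centring each array on its median, averaging the probe sets of a gene and leaving out each sample in turn also gave 7. These could not do otherwise: centring shifts members and background alike, and each member had 1 probe set. Leaving out a sample changes nothing where every member was detected on all 3 arrays or on none. Over protein-coding genes alone, an alternative added after seeing the data, the share of detected genes was 66.8%. No member had a range above 1 with quantile normalization, with centring or without the filter on dim genes. Since none had it without that filter, a change of the detection level could not raise the count. Leaving out a sample or averaging probe sets could not raise it either. At the lower size threshold of 1.5-fold 2 of the 7 detected members passed, Lpl and Cd36, and so did 19.9% of detected genes. All 10 mean levels moved by less than 1 SD with quantile normalization. The other runs could not show a larger move. Centring and averaging probe sets leave these means as they are, and leaving out 1 of 3 samples cannot move a mean by 1 SD. Ranges moved by more than 1 SD for 1 gene without sample 1, 5 without sample 2 and 4 without sample 3, and that of Fabp4 was 0.0018 without sample 2. Cidec's range of 0.031 became 0.055 with quantile normalization and 0.054 with centring. The platelet sum without Pf4 was also added after seeing the data. No paired analysis was possible because there is 1 group. Saturation could not be read from the values, and background only through the receptor probe sets, since there are no detection calls.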

Other observations

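Several of the adipocyte genes belong to small families, and other members of these families, listed after the main values were seen, were also read. Retnla and Retnlg, the resistin-like genes of macrophages and of neutrophils, were both well above background. Retnla was at 9.76, 10.23 and 8.25 in samples 1 to 3, a span of 3.94-fold with sample 2 the highest and sample 3 the lowest. Retnlg was at 10.35, 10.73 and 10.89. Retn itself stayed within 0.24 of the background level, and the intestinal gene Retnlb was below it at a mean of 3.37 ± 0.22 (SD, n = 3). Whether probes of Retn pick up the related transcripts was not tested, and Retn was lowest in sample 2, where Retnla was highest.

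Of 7 fatty acid binding protein genes 4 were detected on all arrays, beside 60.5% of all named genes. The 4 were Fabp3, Fabp4, Fabp5 and Fabp7, while the liver and gut genes Fabp1, Fabp2 and Fabp6 were at means of 2.92, 3.07 and 3.45. In the PPAR family Ppard, the widely expressed member, was at 7.13 ± 0.035 (SD, n = 3), and Ppara, the member of liver and oxidative tissues, was below background at 4.30 ± 0.082 (SD, n = 3). The CD36 relatives Scarb1, a receptor for high-density lipoprotein, and Scarb2, a lysosomal membrane protein, were detected at 7.49 ± 0.37 and 9.22 ± 0.094 (SD, n = 3 each). Scarb1 was highest in sample 3, at 7.91 against 7.24 and 7.31, where Cd36 was lowest.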
